A study of Danio rerio with 16 samples.

Results

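Among 15304 protein coding genes measured in zebrafish whole brain, 38 met a rule for genes nearly lost in 1 of 4 strains. A gene was taken when the mean CPM (read counts scaled by the reads on genes of the library, with a total of 1000000) of its lowest strain was at most 0.25 times the mean of the next lowest strain, and when every library of that strain lay below every library of the other 3. The rule picked 16 genes as low in SH, 14 in AB, 6 in LSB and 2 in HSB, 0.248% of the table. Libraries of 1 strain lay below all others, at any fold, in 1795 genes, 11.7% of those tested. Because CPM values from all 16 libraries chose the genes, the strain levels of these genes are given as a description and carry no test.

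The fish were AB and Scientific Hatcheries (SH), both obtained from commercial suppliers, and LSB and HSB (Low and High Stationary Behavior), which descend from wild-caught fish and had been bred for that behavior over several generations. All were 17 weeks old and the labels name no transgene or treatment, although some of the LSB and HSB fish had been through a behavioral test in the weeks before. For each strain and sex, brain RNA of 10 fish was combined into a pool, and there were 2 pools of different fish, which gave 4 libraries per strain. P-values here therefore measure the spread between pools.

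Zebrafish strains differ at many places in the genome, and some immune gene families are known to vary in gene content from fish to fish. Class II molecules of the major histocompatibility complex (MHC), built of an alpha and a beta chain, present peptides to helper T cells, and NACHT and leucine-rich repeat (NLR) proteins sense microbes and damage inside the cell, in some cases through caspases. Many other zebrafish genes exist as duplicates, and an annotation can also list the same gene in more than a single row.

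Depth ranged from 18398865 to 35737825 reads on genes per library (median 28773428), so that a single read was worth 0.0280 to 0.0544 CPM. Every gene of the table exceeded 1 CPM in at least 4 libraries. Brain markers were present throughout, with the summed CPM of the neuron markers slc17a6b, elavl3 and syt1a between 1354 and 1906. The libraries labelled LSB female pool 2 and LSB male pool 2 went against their sex labels. Within each of the other strains, dio2, igf1 and cyp19a1b separated both female from both male pools, whereas in LSB, dio2 had 50.4, 128, 117 and 40.1 CPM in female pools 1 and 2 and male pools 1 and 2. Results that rest on sex are therefore also given without both of these libraries. The skeletal muscle markers ckma, mylpfa and actc1b summed to 1264 CPM in AB male pool 2 and to 16.5 to 272 CPM in the other libraries.

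Outside the strain in which they were low, the 38 genes were weakly expressed, with a median of 6.54 CPM, compared with a median of 20.2 CPM over all genes. The next lowest strain exceeded the low strain by a median of 9.78-fold, and by 10-fold or more in 19 genes. The low strain had a mean under 1 CPM in 30 genes, 3 reads or fewer over its 4 libraries in 6, and no read at all in 1, zgc:171500. In the rest it was higher, up to 10.7 CPM for CR388129.1 (1080 reads in HSB), so those genes were reduced in the low strain and not nearly lost. Among the other 3 strains, the highest was at least 2 times the next lowest in 19 of the 38 genes (50%), against 2.70% of all genes. In 9 of the 38 the next lowest strain had a mean under 1 CPM, so that these genes entered the table through their higher strains and part of this spread was fixed by the filter of the table. In 27 genes the libraries of the highest and of the next lowest strain did not overlap, and in 11 they did. The share of all genes without such overlap was not counted, so these counts are a description only. Variation between the 4 libraries of a strain was also wider, with a median coefficient of variation of 21.5% over the 114 groups outside the low strains and 6.72% over all genes and strains, a comparison that level was not matched for.

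**Figure D1:**
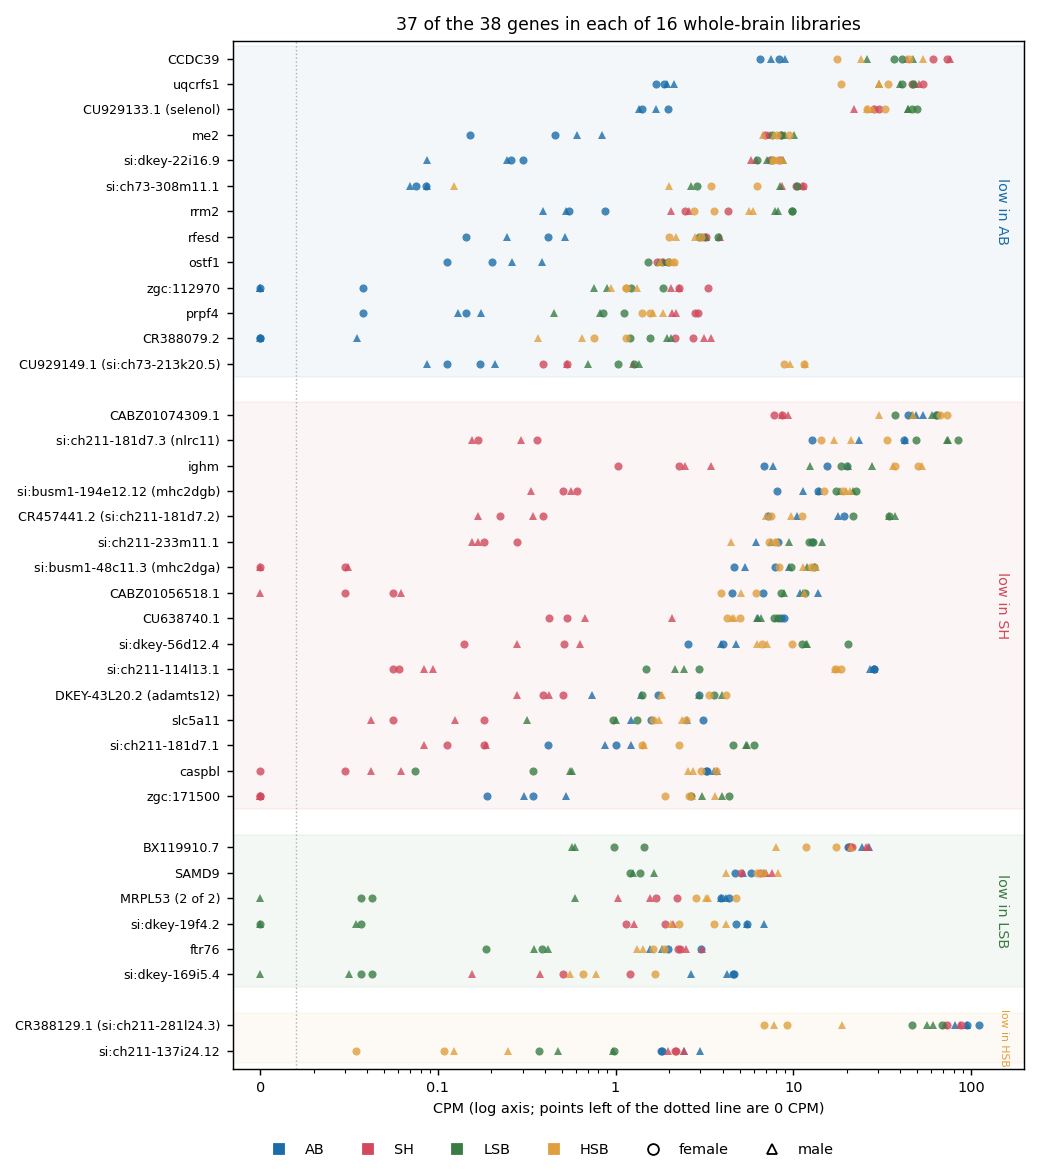
CPM of 37 of the 38 genes (rows, grouped by the strain in which they were low) in each of 16 libraries, on a log axis with values of 0 drawn at the left edge. Colors mark the strain, circles female pools and triangles male pools. In each row the 4 points of the low strain lie to the left of the other 12, by a gap that was narrowest for caspbl (0.0623 against 0.0743 CPM). Both of these values rest on a few reads.

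Of the 14 genes low in AB, several encode enzymes and subunits of basic cell functions, and 6 shared their name with a second row of the table. The Rieske iron-sulfur subunit of respiratory complex III, uqcrfs1 (ENSDARG00000077402), had 1.86, 1.7, 2.13 and 1.95 CPM in AB female pools 1 and 2 and male pools 1 and 2, an order kept in all lists of 4 values here. The same gene had 53.7, 46.9, 48.8 and 51.2 CPM in SH, 40.7, 47.0, 39.8 and 30.5 in LSB and 34.1, 18.6, 30.2 and 30.4 in HSB. All AB pools were low and close to each other, and the lowest of the other 12 libraries, HSB female pool 2, stood far above them. The mean of HSB, the next lowest strain, was 14.8-fold that of AB (28.3 ± 6.71 against 1.91 ± 0.179 CPM, SD, n = 4 libraries).

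A second row named uqcrfs1 (ENSDARG00000007745) was highest where the first was lowest. It had 73.8, 67.8, 72.4 and 68.5 CPM in AB, 34.2, 41.7, 46.8 and 42.1 in SH, 45.2, 43.4, 49.7 and 44.2 in LSB and 49.4, 58.5, 54.5 and 57.4 in HSB, so that AB was the highest strain with no overlap. AB exceeded the mean of the other 3 strains by 0.59 on the log2(CPM + 0.5) scale (standard error 0.06), with a Benjamini-Hochberg adjusted p of 3.83e-06 in limma, which fits a linear model gene by gene. Over all genes, 11.2% were higher and 12.4% lower in AB by this test. The sum of both rows was 72.5 ± 3.03 CPM in AB, 91.3 ± 3.69 in SH, 85.2 ± 7.21 in LSB and 83.3 ± 4.49 in HSB (SD, n = 4 libraries each). In these sums AB was still the lowest strain on average, by 1.15-fold, and its range overlapped that of the other libraries.

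The mitochondrial malic enzyme me2, which turns malate into pyruvate, followed the same form. Row ENSDARG00000086153 had 0.459, 0.151, 0.837 and 0.607 CPM in AB, 6.97, 8.54, 7.23 and 7.44 in SH, 8.53, 7.61, 10.1 and 9.04 in LSB and 8.09, 9.51, 6.75 and 7.80 in HSB. The AB pools lay well below the rest, and the other 3 strains overlapped. The second me2 row (ENSDARG00000015453) had 16.0, 18.9, 14.8 and 16.9 CPM in AB and 3.43 to 8.51 CPM in the other 12 libraries, and AB was higher by 1.39 on the log2 scale (standard error 0.07, limma adjusted p = 1.53e-09). Summed, the rows gave 17.2 ± 1.47 CPM in AB, 15.2 ± 0.374 in SH, 12.6 ± 1.23 in LSB and 15.4 ± 0.841 in HSB (SD, n = 4 libraries each), and AB ranked highest on average with overlapping libraries.

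Ribonucleotide reductase subunit rrm2 (ENSDARG00000020711), which supplies DNA building blocks to dividing cells, had 0.545, 0.867, 0.523 and 0.390 CPM in AB, 4.28, 2.45, 2.59 and 2.06 in SH, 9.85, 9.80, 8.16 and 7.93 in LSB and 3.56, 2.77, 5.61 and 5.96 in HSB. AB was lowest and LSB highest, and the LSB pools overlapped with no other strain. The other rrm2 row (ENSDARG00000078069) had its lowest mean in LSB (3.42 CPM) and its highest in AB (11.0 CPM), where it exceeded the other strains by 1.20 on the log2 scale (standard error 0.17, limma adjusted p = 7.49e-05). Their sum was 11.6 ± 2.10 CPM in AB, 6.94 ± 0.332 in SH, 12.4 ± 2.22 in LSB and 11.0 ± 1.82 in HSB (SD, n = 4 libraries each). In a list of 14 other genes of cell division, such as pcna and MKI67, made after the values had been seen, 0 were lower and 1 was higher in AB (limma adjusted p, backgrounds as above), while their summed level was 241 to 278 CPM in AB, 218 to 244 in SH, 265 to 300 in LSB and 246 to 283 in HSB. By the same test, 10 of the 14 were lower and 0 higher in SH, where 16.3% of all genes were lower and 31.1% higher. In LSB, 0 were lower and 11 higher, where 24% of all genes were lower and 13.5% higher.

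The splicing factor gene prpf4 (ENSDARG00000076717), whose product belongs to the U4/U6 particle of the spliceosome, had 0.143, 0.0377, 0.174 and 0.130 CPM in AB against 0.450 to 2.90 CPM elsewhere. Its second row (ENSDARG00000067639) was higher in AB, by 0.70 on the log2 scale (standard error 0.10, limma adjusted p = 1.14e-04), and the sums were 4.19 ± 0.609 CPM in AB, 4.15 ± 0.318 in SH, 4.00 ± 0.191 in LSB and 3.92 ± 0.195 in HSB (SD, n = 4 libraries each). For rfesd (ENSDARG00000058725), which encodes a protein with a Rieske iron-sulfur domain, the second row did not show AB as the highest strain. The member had 0.143, 0.415, 0.244 and 0.520 CPM in AB and 2.01 to 3.86 CPM elsewhere, and RFESD (1 of 2) did not pass the test between AB and the others (log2 difference -0.07, standard error 0.08, limma adjusted p = 0.617). The AB sum, 3.70 to 4.86 CPM, therefore stayed below all other libraries, which began at 6.06 CPM.

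A pair of the same kind was found in LSB. MRPL53 (2 of 2), a row named after a large-subunit protein of the mitochondrial ribosome, had 0.0428, 0.0371, 0 and 0.589 CPM in LSB, 4.36, 3.92, 3.91 and 4.21 in AB, 2.21, 1.69, 1.03 and 1.55 in SH and 4.77, 2.83, 3.24 and 3.31 in HSB. LSB male pool 2 stood apart from the other LSB pools and still lay below every other library. MRPL53 (1 of 2) had its highest mean in LSB, at 6.27 CPM against 1.75 in AB, 1.94 in HSB and 4.61 in SH, and was higher in LSB by 1.16 on the log2 scale (standard error 0.18, limma adjusted p = 1.88e-04, 13.5% of all genes were higher in LSB). The sums were 5.85 ± 0.312 CPM in AB, 6.23 ± 0.334 in SH, 6.44 ± 1.36 in LSB and 5.48 ± 0.463 in HSB (SD, n = 4 libraries each). Among the 150 other genes with ribosomal protein names, 86 were higher and 6 lower in LSB, where 24% of all genes were lower. Genes of the mitochondrial and of the cytosolic ribosome were not counted apart in that list.

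In all, 7 of the 38 genes (18.4%) had a same-name row, against 12.1% of all genes, and the share was 6 of 14 in AB, 1 of 6 in LSB and 0 of 16 in SH and 0 of 2 in HSB. Across the 7 pairs, the same-name row had its highest mean in the strain that lacked the member in 6 of 7 cases, and the sum of the pair overlapped between the low strain and the rest in 6 of 7. Neither share was counted over the other same-name rows of the table, so both are a description of these pairs only. The tests of the same-name rows were chosen after the values had been seen, and each of the 6 differences kept its direction and its adjusted p below 0.05 under 22 alternative settings. Rows of nearly identical sequence can share or exchange reads when reads are assigned to genes, so the levels of each row of a pair are uncertain. The part of this in the results was not tested. The member rows of uqcrfs1, me2, prpf4 and MRPL53 had no current symbol and were matched to RefSeq by name. Such a match was taken only where a single RefSeq gene bore the name. Whether the rows of a pair are separate genes or versions of a single gene was not resolved.

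**Figure D2:**
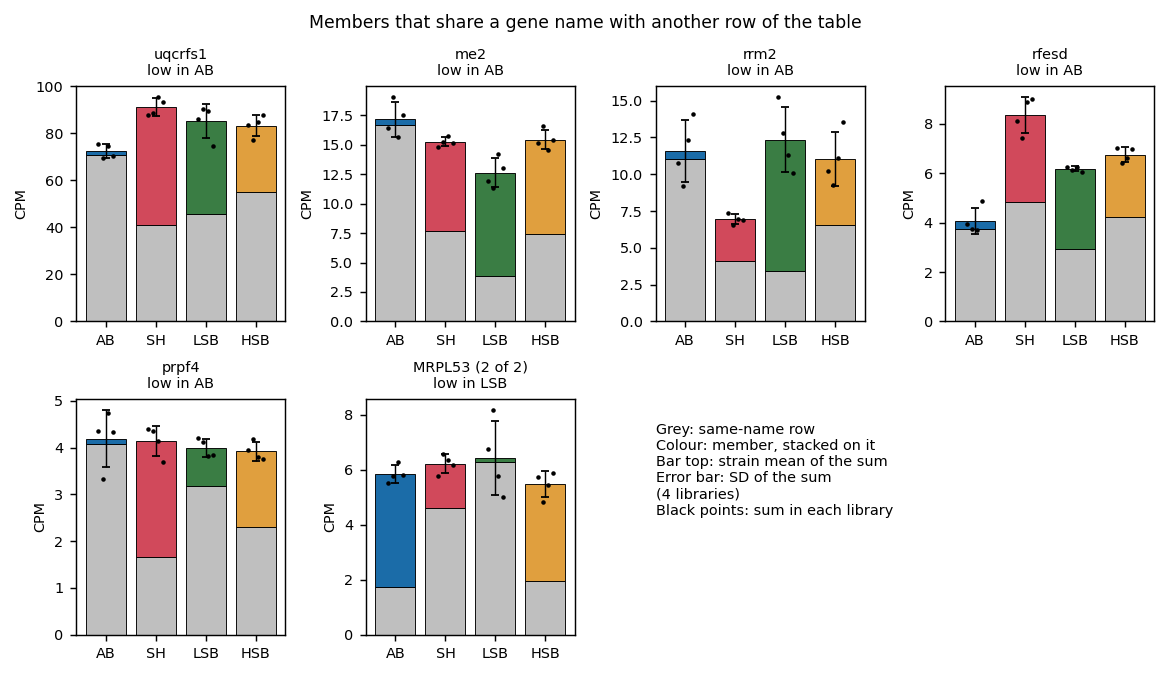
Mean CPM of 6 of the 7 members (colored) stacked on the row of the table with the same gene name (grey), for each strain. Bar tops are strain means of the sum, error bars are the SD of the sum over 4 libraries and black points are the sums in single libraries. In AB the colored part is thin and the grey part tall for uqcrfs1, me2, rrm2 and prpf4, and for MRPL53 the same holds in LSB, whereas for rfesd the AB bar is the lowest.

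The remaining 8 genes low in AB had no same-name row. CCDC39, needed for the assembly of motile cilia, had the highest level of the group. It had 6.48, 8.34, 7.53 and 8.93 CPM in AB, 73.7, 61.1, 43.7 and 76.2 in SH, 40.8, 36.9, 25.9 and 47.4 in LSB and 17.7, 44.6, 24.2 and 53.9 in HSB. AB was even and low, SH was highest, and the widest spread was in HSB, whose female pool 1 lay nearest to AB. In whole-brain RNA, fewer cells of a type and less RNA per cell cannot be told apart. A list of 53 other genes with cilium and axoneme names, drawn up after the values had been seen, had 17 lower and 3 higher in AB, where 12.4% of all genes were lower and 11.2% higher, with a median of -0.19 on the log2 scale against -0.002 over all genes. Being filled by name, the list also held genes that need not act in cilia, such as SPAG5, spag7 and spag9a. In SH, the strain with the highest CCDC39, 6 of the 53 were lower and 29 higher (16.3% and 31.1% of all genes), with a median of 0.24 against 0.06. Its summed level, with CCDC39 included, was 639 to 695 CPM in AB, 771 to 816 in SH, 675 to 727 in LSB and 668 to 712 in HSB.

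The selenoprotein L gene selenol, listed as CU929133.1, had 1.40, 1.96, 1.36 and 1.69 CPM in AB, 30.4, 28.6, 22.1 and 28.7 in SH, 46.4, 50, 44.3 and 44 in LSB and 26.0, 32.9, 26.0 and 28.2 in HSB. AB was far below the rest, LSB stood above all, and SH and HSB overlapped. The next lowest strain exceeded AB by 17.1-fold. For ostf1, an adaptor protein first described as a factor that promotes bone-resorbing cells, AB had 0.201, 0.113, 0.384 and 0.260 CPM and the other strains 1.52 to 2.14 CPM, with SH, LSB and HSB overlapping.

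The other 5 were without a described function in the tables used here. si:dkey-22i16.9 had 0.258, 0.302, 0.244 and 0.0867 CPM in AB and 5.80 to 8.74 CPM elsewhere, 31.2-fold more in the next strain. si:ch73-308m11.1 was low in AB (0.0860, 0.0754, 0.0698 and 0.0867 CPM), high and even in SH (10.3, 11.4, 8.60 and 11.3) and uneven in LSB (2.87, 10.5, 8.44 and 2.67) and HSB (6.29, 3.42, 0.123 and 2.00). HSB male pool 1 came within 1.42-fold of the highest AB library, and the 4 HSB pools spanned 51.1-fold, the widest range of any of the 114 groups outside the low strains. A single read was found in AB for zgc:112970 and for CR388079.2, whose other libraries had 0.759 to 3.30 and 0.368 to 3.46 CPM, and the next lowest strain (HSB in both) exceeded AB by 121-fold (95% counting interval 23.1 to 5079) and 83.6-fold (14.8 to 3258).

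The eighth, CU929149.1 (si:ch73-213k20.5 in RefSeq), was set apart more by its highest strain than by its lowest. It had 8.82, 11.5, 9.62 and 11.6 CPM in HSB, 1.03, 1.26, 0.696 and 1.35 in LSB, 0.532, 0.392, 0.530 and 1.26 in SH and 0.172, 0.113, 0.209 and 0.0867 in AB. HSB was 15.3-fold above SH, a wider step than the 4.67-fold between SH and AB.

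In SH, the 16 genes included 2 of the 25 genes of an MHC list, 1 of 8 genes of an NLR list, the antibody gene ighm and caspbl, 1 of 13 genes with caspase names. Over all genes, 0.248% were members in any strain. The lists were filled by name and these counts were not tested. The class II alpha chain gene mhc2dga (ENSDARG00000055441) had 0, 0.0302, 0.0312 and 0 CPM in SH, 4.62, 7.85, 9.52 and 5.38 in AB, 13.1, 9.77, 11.9 and 13.2 in LSB and 8.33, 12.7, 11.3 and 13.5 in HSB. The SH libraries together held 2 reads, and AB, the next lowest strain, was 446-fold higher (95% counting interval 118 to 3523). The beta chain gene mhc2dgb (ENSDARG00000055447) had 0.504, 0.604, 0.561 and 0.336 CPM in SH, 8.06, 13.8, 13.9 and 11.3 in AB, 22.6, 17.3, 18.3 and 21.8 in LSB and 15.0, 19.0, 19.9 and 20.7 in HSB, a 23.5-fold step from SH to AB. Both chains were lowest in SH, then AB, while LSB and HSB overlapped, and both were lowest of the AB pools in female pool 1.

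The 2 chain genes were next to each other among the table's genes in the RefSeq gene order, and the next gene, the class II gene mhc2daa (listed as si:busm1-266f07.2), did not share their pattern. It had 123 CPM in SH against 98.0 in AB, 78.5 in LSB and 99.7 in HSB, and was higher in SH by 0.44 on the log2 scale (standard error 0.10, limma adjusted p = 0.00181). On the other side, glt1d1 (listed as CU693378.1) did not pass the test (-0.25, standard error 0.13, adjusted p = 0.121). Over all genes, 16.3% were lower and 31.1% higher in SH, and the median of all genes was shifted by 0.06. Of the 23 genes of the MHC list that were not members, 7 were lower and 3 higher in SH, with a median of -0.01. That list also held genes that do not encode MHC chains, such as tap1, psmb8, PSMB10 and tapbp. Some of the calls came from these, with PSMB10 lower and tapbp higher. Among the 23, the class II gene mhc2dab was lower (-0.37, standard error 0.08, adjusted p = 0.00125), as was b2m, the light chain of class I molecules (-0.57, standard error 0.07, adjusted p = 2.27e-05), while the class I gene mhc1uba was higher (1.69, standard error 0.09, adjusted p = 1.83e-09).

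The NLR gene nlrc11, listed as si:ch211-181d7.3, had 0.168, 0.362, 0.156 and 0.294 CPM in SH, 42.2, 12.7, 42.5 and 23.4 in AB, 84.5, 49.4, 73.5 and 74.4 in LSB and 14.4, 33.6, 21.2 and 16.9 in HSB. SH was nearly empty, at 30 reads in 4 libraries, and the next lowest strain, HSB, was 87.9-fold higher. Its neighbour si:ch211-181d7.2, listed as CR457441.2, had 0.224, 0.392, 0.343 and 0.168 CPM in SH, 19.4, 7.24, 17.9 and 10.4 in AB, 34.8, 21.6, 34.8 and 37.5 in LSB and 7.54, 11.3, 9.74 and 7.06 in HSB. The gene on its far side, si:ch211-181d7.1, had 0.112, 0.181, 0.187 and 0.0840 CPM in SH, 1.00, 0.415, 1.22 and 0.867 in AB, 6.0, 4.57, 5.41 and 5.51 in LSB and 1.42, 2.28, 1.45 and 1.43 in HSB. LSB was highest in all 3, while AB lay above HSB on average in the first and the second and below it in si:ch211-181d7.1, where the step from SH was also smaller, at 6.22-fold to AB. The same pool was at an extreme of its strain: AB female pool 2 and LSB female pool 2 were lowest, and HSB female pool 2 was highest, in all 3.

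The genes directly on either side of this trio were not low in SH. The receptor gene epha4l had 29.1 CPM in SH and 27.3 to 32.4 CPM in the other strain means (log2 difference -0.02, standard error 0.06, limma adjusted p = 0.830), and the sodium-calcium exchanger gene slc8a2b was higher in SH (0.63, standard error 0.13, adjusted p = 0.00120). Of the 7 other NLR genes, 2 were lower in SH and 2 higher, beside 16.3% and 31.1% of all genes. One of those, nlrp1 (listed as si:ch211-66k16.28), had 0.695 CPM in SH, 0.912 in AB and 0.754 in LSB against 9.09 in HSB, so its lower call in SH (-1.09, standard error 0.14, adjusted p = 1.90e-05) came with a high HSB.

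caspbl, a gene like the inflammatory caspase caspb, had 0, 0.0302, 0.0623 and 0.0420 CPM in SH, 3.24, 3.28, 3.59 and 3.73 in AB, 0.343, 0.0743, 0.569 and 0.554 in LSB and 3.67, 3.04, 2.71 and 2.57 in HSB. LSB was also low, and LSB female pool 2 lay only 1.19-fold above the highest SH library, male pool 1. That SH library held 2 reads, and a single read was worth 0.0371 CPM in LSB female pool 2. The gap by which caspbl met the rule therefore rested on a few reads and on the depth of the libraries. The adjacent gene si:ch211-114l13.1 repeated this order at a higher level, with 0.0560, 0.0604, 0.0935 and 0.0840 CPM in SH, 2.96, 1.49, 2.15 and 2.42 in LSB, 18.6, 17.1, 17.2 and 17.8 in HSB and 28.4, 28.4, 27.2 and 28.5 in AB. No strain overlapped with another, and the pools of AB and of HSB agreed to within a few percent of their means. Further along, trim35-1, a TRIM family gene, had 0.0977 CPM in SH, 0.228 in LSB, 1.03 in HSB and 2.98 in AB, and was lower in SH by the test (-1.39, standard error 0.14, limma adjusted p = 2.77e-06). The rows matched to colgalt1b, between trim35-1 and caspb, went in different directions. GLT25D1 (2 of 3) was lower in SH (-0.55, limma adjusted p = 0.00144) and GLT25D1 (1 of 3) higher (0.94, adjusted p = 1.43e-04). The row glt25d1 did not pass (0.02, adjusted p = 0.875). On the other side of caspbl, si:dkey-222h21.2 had 0.738 CPM in SH, 1.13 in LSB and more in AB and HSB (at most 2.34 CPM) and was also lower in SH (-0.81, standard error 0.17, adjusted p = 0.00104). Past it, slc27a1b did not pass (-0.03, limma adjusted p = 0.812), and CABZ01066772.1 was lower by a small step (-0.11, adjusted p = 0.0481). Both rows named caspb, the gene directly beside si:ch211-114l13.1 in the RefSeq gene order, had a lower call in SH, but with another order of strains. ENSDARG00000052039 had its lowest mean in AB, with 1.36 CPM in AB, 1.92 in SH, 3.51 in LSB and 3.72 in HSB (-0.37, standard error 0.12, adjusted p = 0.0188), and ENSDARG00000075270 had 1.06 CPM in AB, 1.02 in SH, 1.69 in LSB and 3.59 in HSB (-0.67, standard error 0.15, adjusted p = 0.00173), so that both calls came with high LSB and HSB. Of 12 genes with caspase names other than caspbl, 7 were lower in SH and 0 higher, beside 16.3% and 31.1% of all genes. That list was made after the values had been seen and held both caspb rows and casp8ap2, which is not itself a caspase.

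**Figure D3:**
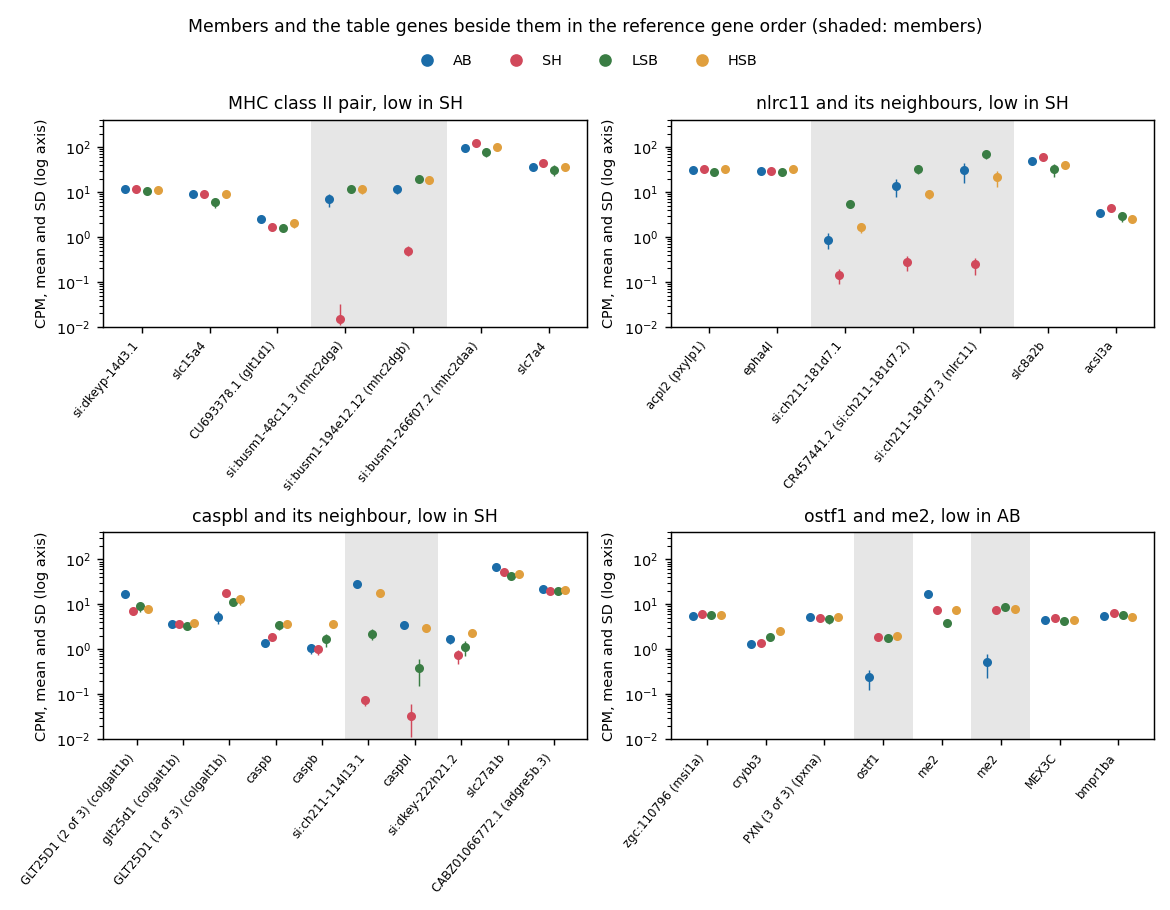
Strain mean CPM (points) with SD over 4 libraries (bars, ending at the lower axis limit where they would pass it) on a log axis, for members (shaded) and the genes of the table next to them, placed in RefSeq gene order without regard to distance. In the 3 panels of genes low in SH the red points lie below the other strains in the shaded genes, while some flanking genes were lower in SH by smaller steps (si:dkey-222h21.2), some higher (slc8a2b and mhc2daa) and some did not pass the test (epha4l and glt1d1), and in the fourth panel ostf1 and 1 of the me2 rows drop in AB.

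Across all members, 27 of 38 (71.1%) matched a RefSeq gene, against 89.3% of the table, and only these could be placed in gene order. They formed 6 adjacent pairs, of which 5 pairs with 9 genes had the same low strain. Beside the pairs described, ostf1 and me2 were adjacent and both low in AB. The 2 me2 rows matched the same RefSeq gene, so which of them lies next to ostf1 was not resolved. Beyond this pair, PXN (3 of 3) and MEX3C did not pass the test in AB (log2 differences 0.11 and 0.02, limma adjusted p = 0.517 and 0.922). The sixth pair joined zgc:171500, low in SH, to CU929149.1, low in AB.

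ighm, the constant region of the IgM antibody heavy chain made by B cells, had 1.04, 2.26, 2.46 and 3.44 CPM in SH, 15.4, 6.86, 7.67 and 20.4 in AB, 18.6, 20.2, 12.4 and 27.9 in LSB and 50.6, 37.2, 52.9 and 36.3 in HSB. SH was lowest and HSB highest with no overlap between HSB and the rest, and AB and LSB overlapped. Summed over 4 other B and T cell genes (rag2, cd22, zap70 and pax5), a list made and corrected after the values had been seen, SH had 11.1 to 12.3 CPM, AB 12.5 to 15.1, LSB 7.97 to 12.4 and HSB 10.0 to 10.7. The 4 need not be confined to lymphocytes in whole brain, so their sum does not measure lymphocyte content. None of the 4 was at 0 in its strain means. Their differences between SH and the other strains lay between -0.13 (zap70) and 0.23 (pax5) on the log2 scale, with limma adjusted p-values of 0.102 (pax5) to 0.703 (cd22). By contrast, the T cell receptor gene TRBC2, outside this list and not a member, was picked as low in SH when the rule used female libraries alone. In male libraries it was lower in SH (-1.28, standard error 0.21, limma adjusted p = 0.00232), where 10.1% of all genes were lower. A list of 12 leukocyte and macrophage genes summed to 163 to 205 CPM in SH, 185 to 212 in AB, 211 to 235 in LSB and 211 to 250 in HSB, and 4 of the 12 were lower and 2 higher in SH. Of 36 genes named as CD antigens or immunoglobulin-like receptors, of which several, such as cd81, cd9b, cd63 and cd151, are made by many cell types, 18 were lower and 6 higher in SH, with a median of -0.13 against 0.06 over all genes (16.3% lower and 31.1% higher). The part of immune cell content in the ighm difference was not tested.

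Of the other SH genes, CABZ01074309.1 had the highest level, with 7.83, 8.69, 8.60 and 9.28 CPM in SH, 44.1, 63.6, 49.4 and 53.8 in AB, 64.6, 37.3, 46.7 and 60.7 in LSB and 67.4, 73.8, 46.9 and 30.2 in HSB. SH was even and the other 3 strains overlapped. si:ch211-233m11.1 had 0.280, 0.181, 0.156 and 0.168 CPM in SH and 4.47 to 14.5 CPM elsewhere, 35.4-fold more in the next lowest strain. CABZ01056518.1 had 0.0560, 0.0302, 0.0623 and 0 CPM in SH, where 5 reads were found in all, and 3.91 to 13.8 CPM elsewhere, a 180-fold step. For both, the 4 SH pools lay far from the remaining libraries.

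zgc:171500 had no read in any SH library, and 3 reads over those libraries would have been 0.0240 CPM. It had 0.344, 0.189, 0.523 and 0.303 CPM in AB, 2.66, 4.34, 3.98 and 3.05 in LSB and 2.59, 1.90, 3.64 and 2.70 in HSB. The next lowest strain was 14.1-fold above these 3 reads, and the lower limit of the 95% counting interval was 11.5-fold. AB was itself low, with LSB 10.3-fold above it. si:dkey-56d12.4 had 0.140, 0.513, 0.280 and 0.630 CPM in SH, 4.04, 2.56, 4.78 and 3.90 in AB, 11.1, 20.3, 12 and 11.8 in LSB and 6.64, 9.84, 7.12 and 6.25 in HSB, and all 4 strains were apart from one another.

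CU638740.1 had 0.532, 0.423, 2.09 and 0.672 CPM in SH and 4.24 to 8.90 CPM elsewhere. The high SH value was that of male pool 1, the SH library with the most skeletal muscle RNA (73.1 CPM for the 3 muscle markers, against 16.5 to 17.9 in the other SH libraries). The part of muscle in this value was not tested. Extracellular protease gene adamts12, listed as DKEY-43L20.2, had 0.504, 0.392, 0.280 and 0.420 CPM in SH, 2.95, 1.73, 1.40 and 0.737 in AB, 3.60, 1.41, 3.95 and 2.94 in LSB and 4.18, 3.37, 1.82 and 1.80 in HSB, and AB male pool 2 came within 1.46-fold of the highest SH pool. slc5a11, a sodium-coupled transporter of myo-inositol and glucose, had 0.0560, 0.181, 0.125 and 0.0420 CPM in SH against 0.316 to 3.12 CPM elsewhere.

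The 6 genes low in LSB were of mixed kinds. BX119910.7, without a current symbol, had the highest level, with 0.985, 1.45, 0.569 and 0.589 CPM in LSB, 20.7, 20.3, 26.6 and 24.4 in AB, 21.3, 20.8, 25.6 and 26.4 in SH and 17.4, 11.8, 8.04 and 21.1 in HSB, and the next lowest strain was 16.3-fold higher. SAMD9, an antiviral factor in humans, had 1.20, 1.37, 1.64 and 1.25 CPM in LSB, 4.70, 5.77, 5.23 and 6.81 in AB, 5.09, 6.49, 7.01 and 7.56 in SH and 6.74, 6.25, 8.26 and 4.21 in HSB. LSB was low in both genes, and in SAMD9 the other 3 strains overlapped. ftr76, of the finTRIM family that expanded in fish, had 0.386, 0.186, 0.348 and 0.416 CPM in LSB and 1.33 to 3.08 CPM elsewhere. Of the 51 other TRIM and finTRIM genes, 11 were lower and 6 higher in LSB, where 24% of all genes were lower and 13.5% higher.

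The last 2 LSB genes were graded over the other strains. si:dkey-19f4.2 had 0, 0.0371, 0 and 0.0346 CPM in LSB, 1.15, 1.90, 1.28 and 2.10 in SH, 3.56, 2.28, 4.19 and 2.04 in HSB and 4.79, 5.47, 6.87 and 5.46 in AB, with 2 reads in LSB and a ratio of 89.6 between SH and LSB (95% counting interval 24.6 to 735). si:dkey-169i5.4 had 0.0428, 0.0371, 0.0316 and 0 CPM in LSB, 0.504, 1.21, 0.156 and 0.378 in SH, 1.66, 0.652, 0.555 and 0.776 in HSB and 4.59, 4.64, 4.26 and 2.64 in AB, with 3 reads in LSB and a ratio of 20.1 (7.09 to 100.5, counting error of the LSB reads only). SH, the next lowest strain, varied widely, and without its female pool 2 the LSB level was 0.0807 of that of SH in place of 0.0497. AB was the highest strain in both and overlapped with no other.

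Both genes low in HSB lacked a described function in the tables used. CR388129.1 (si:ch211-281l24.3 in RefSeq) reached the highest strain mean of the 38 genes, with 6.81, 9.24, 7.83 and 18.7 CPM in HSB, 68.8, 46.7, 56.6 and 61.1 in LSB, 73.0, 88.3, 86.4 and 71.7 in SH and 111, 94.9, 95.6 and 81.0 in AB. HSB male pool 2 was the highest of its strain and remained below the lowest LSB library. si:ch211-137i24.12 had 0.0346, 0.109, 0.247 and 0.123 CPM in HSB, 0.985, 0.371, 0.474 and 0.970 in LSB, 2.18, 2.17, 1.96 and 2.44 in SH and 1.83, 1.81, 2.44 and 2.99 in AB. In both genes the strains from wild-caught fish were the lowest pair, each with a 5.47-fold step from HSB to LSB.

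By name, the genes were poorly annotated. Of the 38, 24 (63.2%) carried a name derived from a genomic or cDNA clone, against 15.6% of all genes, and 15 (39.5%) had an identifier paired with no current symbol, against 20.2%. The share with a clone name was 13 of 16 in SH, 6 of 14 in AB, 3 of 6 in LSB and 2 of 2 in HSB. The families of ion channels (162 genes), transmitter receptors (117), zinc finger proteins (198) and heat shock proteins (72) held 0 members each. Solute carriers held 1 of 316, proteases 1 of 82, the respiratory chain 1 of 105 and ribosomal proteins 1 of 151. Over all genes the share was 0.248%, and at that share counts of 0 or 1 do not set families of these sizes apart. Among 104 respiratory chain genes other than uqcrfs1 (ENSDARG00000077402), 16 were lower and 11 higher in AB, close to the 12.4% and 11.2% of all genes, and of the other 6 complex III genes 0 were lower and 1 was higher, the second uqcrfs1 row.

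The rule was also applied to the libraries of 1 sex, and its picks were tested in the libraries of the other sex, which had not made these picks. The 8 female libraries picked 53 genes, and in the 8 male libraries 49 of them were lower in the same strain (limma adjusted p below 0.05). By strain these were 16 of 16 in AB, where 9.57% of all genes were lower, 21 of 25 in SH (10.1%), 7 of 7 in LSB (6.87%) and 5 of 5 in HSB (5.06%). The 4 that did not pass, si:dkey-79f11.10, zgc:111983, cyp7a1a and icn2, were all SH picks and not among the 38. In the other direction, 41 genes were picked in males and 40 were lower in females, 16 of 16 in AB (3.86% of all genes), 15 of 15 in SH (10%), 8 of 9 in LSB (25.4%) and 1 of 1 in HSB (2.78%). The exception was cyp7a1a, the rate-limiting enzyme of bile acid synthesis. Of these picks, 37 and 33 were among the 38, and all of those passed. The libraries tested had helped to choose the 38, so for them this was no separate check. The contrast was with the mean of the other 3 strains, so that 1 high strain could contribute to a pass. Without both LSB pools numbered 2, 51 of 55 and 40 of 47 passed.

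**Figure D4:**
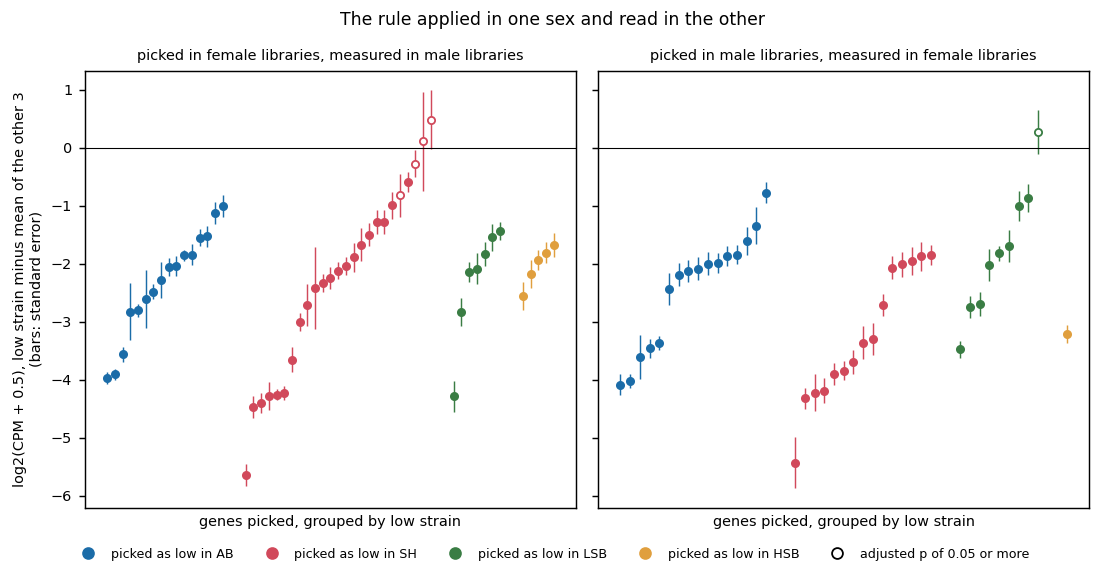
Difference between the low strain and the mean of the other 3 on the log2(CPM + 0.5) scale, with standard errors, for genes picked in the libraries of 1 sex and measured in those of the other. Filled points passed an adjusted p of 0.05 in limma and open points did not. Of the 53 genes picked in females, 49 were lower in males, and of the 41 picked in males, 40 were lower in females.

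Sex was not used by the rule, and 0 of the 38 genes passed a test for it. Over the 16 libraries, 6 of 15304 genes (0.0392%) passed for sex and 0 of the 38 did (limma, smallest adjusted p = 0.375). At an unadjusted p under 0.05 there were 4 of the 38, with si:dkey-169i5.4, CABZ01056518.1 and si:ch211-233m11.1 among them, and 1555 of all genes. The median male minus female difference was 0.05 for the 38 and -0.002 for all genes. For an interaction of sex with strain, 5 genes (0.0327%) and 0 of the 38 passed (smallest adjusted p = 0.182, for rrm2, ENSDARG00000020711), and 7 of the 38 and 2538 of all genes had an unadjusted p under 0.05. Without both LSB pools numbered 2, 80 of 15304 genes and 0 of the 38 passed for sex, and 0 of the 38 passed for the interaction. The count over all genes for the interaction in that setting is not given here. So few genes passed for sex over the table that a count of 0 does not set the 38 apart. Leaving out LSB female pool 1 gave 1947 genes with an interaction, 4 of the 38 among them.

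At the limit of the rule, members close to 0.25 were DKEY-43L20.2, at a ratio of 0.234, and SAMD9, at 0.243. Just outside were dap1b in HSB (9.70 against 38.1 CPM, ratio 0.255) and tnni1b, a troponin of muscle, in SH (1.08 against 4.16 CPM, ratio 0.259). A further 5 genes met the ratio but had overlapping libraries, CABZ01029902.1, zgc:194221 and si:ch73-256j6.3 in AB, rbm22 in LSB and zgc:195170 in SH.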

How the data were processed

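Whole-brain RNA was sequenced in 16 libraries, 4 per strain, each made from 10 fish. The authors aligned the reads with GSNAP to the Zv9 genome, counted them per gene with HTSeq in union mode against Ensembl release 71, used edgeR and deposited CPM values, scaled to the reads on genes of each library, for 15304 genes. A CPM counts only reads that matched this single reference, and how well each strain matched it was not analysed here. Each column name gave the strain, sex and pool of its library.

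The members, gene lists and tests were chosen with earlier results of these data known, and some lists after the values had been seen. Strain means of 4 libraries were formed from the CPM values. TUBB2B was left out by the rule, and its ratio of 0.310 would not have met it. Tests used limma 3.58.1 in R 4.3.3 (lmFit, eBayes with trend) on log2(CPM + 0.5) over all genes, two-sided, with Benjamini-Hochberg adjustment at 0.05. Strain and sex were terms, and strain alone within 1 sex. In every library, 100% of values were whole multiples of a single read within a tolerance of 0.05, which gave the depth and the reads behind low values. Counting intervals (95%) cover only the counting error of the reads of the low strain. The mean of the next lowest strain was taken as exact, so they are too narrow where that strain was also low. A fold against 0 reads was set against 3 reads over the 4 libraries.

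A same-name row shared the symbol, or the RefSeq gene, of a member. RefSeq genes of assembly GRCz12tu gave names and gene order only, for 13660 of 15304 genes, and a current symbol was found for 12215. Named members were, for each low strain, the 6 with the highest next lowest mean and the 6 with the smallest ratio, those sharing a family or adjacent to each other, and those nearest the limit of the rule. The remaining members were added, except that 1 of the 38 is counted throughout but not reported here. Grouping by protein sequence was not done here. The methods were also run on simulated data, with changed genes in AB only and the same spread beyond counting error for every gene. Its outcome is not given here, and it does not speak for genes that varied more between pools. Alternatives were added constants of 0.1 and 1 (0.5 for ratios), rescaling by median ratios, a filter at a mean of 1 CPM, ratio limits of 0.333 and 0.2, medians, each sex alone, a replicate block, and leaving out libraries. Python 3.11.15, numpy 2.4.6, scipy 1.17.1, pandas 2.3.3 and matplotlib 3.10.9 were used.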

Additional observations from a re-analysis of the deposited data

Results flagged for a closer look

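Of 152 groups of 4 libraries (38 genes in 4 strains), 8 had a single library far from the other 3, and chance gives about 1 in 20 such groups. Among the 38 genes, zgc:112970 had 0.0377 CPM in AB female pool 2 and CR388079.2 had 0.0349 CPM in AB male pool 1, a single read each, with 0 in the other AB libraries. CU929149.1 had 1.26 CPM in SH male pool 2, against at most 0.532 in the other SH libraries. MRPL53 (2 of 2) had 0.589 CPM in LSB male pool 2, against at most 0.0428 in the other LSB libraries. CU638740.1 had 2.09 CPM in SH male pool 1, against at most 0.672 in the other SH libraries. si:dkey-56d12.4 had 20.3 CPM in LSB female pool 2, against at most 12 in the other LSB libraries. si:ch211-114l13.1 had 27.2 CPM in AB male pool 1, below the 28.4 to 28.5 CPM of the other AB libraries, a small difference in a group that was otherwise very even. si:ch211-181d7.1 had 2.28 CPM in HSB female pool 2, against at most 1.45 in the other HSB libraries, and the adjacent genes nlrc11 and si:ch211-181d7.2 were also highest of HSB in that library.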

How the results depend on the processing

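The number of genes depended most on how values near 0 were treated. With 0.1 CPM added to each strain mean 31 of the 38 remained, with 1 in HSB. With 0.5 CPM added 19 remained, 6 in AB, 10 in SH, 2 in LSB and 1 in HSB. All 38 were kept after rescaling and after a filter on mean CPM. A ratio limit of 0.333 gave 52 genes (4 in HSB), and 0.2 gave 30. Female libraries alone gave 25 in SH and 5 in HSB, and male libraries alone gave 1 in HSB. Leaving out 1 library at a time gave 37 to 47 genes in all, 12 to 16 in AB, 15 to 25 in SH, 5 to 8 in LSB and 2 to 3 in HSB. CCDC39, CU929149.1, SAMD9 and adamts12 (DKEY-43L20.2) were among the genes of the 38 that dropped out in some of these settings. The ratio of low to next lowest strain moved by more than 1.5 times with 1 library left out in MRPL53 (2 of 2) (0.103 to 0.0164 without LSB male pool 2), CU638740.1 (0.202 to 0.118 without SH male pool 1), si:dkey-169i5.4 (0.0497 to 0.0807 without SH female pool 2), si:ch73-308m11.1 (0.0268 to 0.0430 without HSB female pool 1), si:dkey-19f4.2 (0.0112 to 0.00718 without LSB female pool 2) and mhc2dga (0.00224 to 0.00147 without SH male pool 1). For zgc:112970 and CR388079.2 this ratio fell to 0 (from 0.00829 and 0.0120) without AB female pool 2 and AB male pool 1, which held their only AB reads. The 47 genes, with 25 in SH, came without SH male pool 1, which had the most muscle marker RNA of the SH libraries (73.1 CPM), and that setting raised the genes picked in males and lower in females from 40 to 61. The genes picked in 1 sex and lower in the other ranged from 47 to 53 in males and from 37 to 61 in females. Without HSB female pool 2, 86 genes were picked in females, in place of 53, and 53 of them were lower in males. Genes passing for sex numbered 80 without both LSB pools numbered 2, and 5 to 52 with 1 library left out (52 when LSB female pool 2 was left out, 35 for LSB male pool 2 and 10 for AB female pool 2), with 0 to 0 of the 38 among them. Genes with an interaction ranged from 0 to 1947 (1947 without LSB female pool 1, 47 without AB male pool 1 and 0 without either SH pool numbered 2), with 0 to 4 of the 38. Pool numbers did not pair the samples: the correlation of deviations between female and male pools of the same number was 0.07 in AB, -0.09 in SH, -0.21 in LSB and 0.31 in HSB. With the replicate number as a block, 0 genes had an interaction and 4 differed by sex. No ratio of the 38 genes and no difference of a same-name row changed direction in the settings in which it was recomputed. Counts were compared by size only, so direction was not scored for them. Low counts limit the ratios of the 6 genes with 3 reads or fewer.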
